A study of Homo sapiens with 5 samples.

Results

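The 9 annexin genes examined here, ANXA1, ANXA3, ANXA4, ANXA5, ANXA6, ANXA7, ANXA8, ANXA9 and ANXA11, belong to the vertebrate annexin A family and were chosen by gene symbol, with no rule on their values; ANXA2, ANXA10 and ANXA13 are not among them. All 9 were found among the 27933 symbols of the expression table. RNA came from HaCaT, an established line of human keratinocytes that grows without limit and still responds to differentiation cues. The 3 knockdown libraries are labelled AHNAK knockdown, and the 2 control libraries are labelled NC or control; both groups were HaCaT cells grown in DMEM with serum. The knockdown libraries' descriptions carry the prefix si, and the labels say no more on how the knockdown was made, whether with 1 reagent or several, or how long before harvest. The series' design text calls the same cells a knockout. Nothing in the labels says whether replicates were separate cultures, so each p-value covers the spread among these libraries alone, which may be technical.

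Annexins are cytosolic proteins that dock onto acidic phospholipids when calcium rises, through a core of repeated helical domains. Their N-terminal tails differ and set what each one binds, for example S100 proteins. In keratinocytes they are known for linking membranes to the actin cytoskeleton, for resealing plasma membrane wounds, and, for annexin A1, as material crosslinked into the cornified envelope. AHNAK, a very large scaffold protein, is held at the plasma membrane by a complex of annexin A2 and S100A10.

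No annexin passed the test for a difference between knockdown and control. ANXA9 came nearest, at 1.84 times its control mean in knockdown cells. ANXA7 and ANXA11 were also higher in every knockdown library than in either control, by less. ANXA8 was lower in every knockdown library, as was its near-identical copy ANXA8L1. Of all genes tested, 32.0% likewise did not overlap between the groups, 16.2% higher and 15.8% lower in knockdown. ANXA1, ANXA3, ANXA4 and ANXA5 overlapped between the groups, and ANXA6 was close to or at 0 throughout.

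The values are FPKM, read fragments divided by transcript length and by the library's mapped fragments. Levels can thus be set side by side between genes only roughly. Every log2 difference is knockdown minus control, computed from log2(FPKM + 0.5), which understates changes of low genes, and was tested with limma over the 12196 genes whose mean reached 1 FPKM, with Benjamini-Hochberg adjusted p under 0.05 as the threshold. Of these genes 0 passed (0% called; smallest adjusted p = 0.0570), while 1427 reached an unadjusted p below 0.05, of which 759 were higher and 668 lower in knockdown; after rescaling to equal FPKM sums that split was 512 higher and 820 lower. FPKM sums were 386096.2 to 420540.9 in knockdown libraries and 374214.8 and 391071.2 in controls. AHNAK itself was at 113.9, 69.6 and 115.3 FPKM in knockdown replicates 1 to 3, against 204.8 and 242.0 FPKM in controls, a log2 difference of -1.19 that did not pass (limma adjusted p = 0.372) and passed with array weights (-1.55; adjusted p = 0.0340). The libraries fall into 2 sets by the steps between their low values: set A holds knockdown replicates 1 and 3 and control replicate 1, and set B holds knockdown replicate 2 and control replicate 2. The labels do not describe these sets, so differences are also given within each, set B with 1 library per group; AHNAK differed by -0.84 (A) and -1.79 (B). All 10 keratinocyte markers examined were at 1 FPKM or more in every library, with summed levels of 4470 to 6040 FPKM in knockdown and 6420 to 7840 FPKM in controls. The 7 fibroblast markers summed to 6.12 to 10.2 FPKM in knockdown and 3.30 to 5.02 FPKM in controls, the 5 melanocyte markers to 2.60 to 3.12 against 3.18 to 3.52 FPKM, the 4 endothelial markers to 2.06 to 2.98 against 2.08 to 2.98 FPKM, and the 4 leukocyte markers to 0.699 to 1.10 against 0.607 to 0.724 FPKM. At 1 FPKM or more in every library were 1 fibroblast, 1 melanocyte, 1 endothelial and 0 leukocyte markers, and 1 melanocyte marker was at 0 throughout. The keratinocyte, fibroblast and melanocyte sums did not overlap between the groups, where 32.0% of single tested genes did not overlap either. Such sums follow their highest genes, for example KRT5 with a mean of 1859 FPKM over the 5 libraries. Their part in the results below was not tested. In bulk RNA, fewer cells of a type and less RNA per cell cannot be told apart.

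Annexin transcripts spanned a wide range in these keratinocytes, with ANXA1 far above the rest. Over the 5 libraries ANXA1 ran from 627.5 to 1115 FPKM (median 763.1), and ANXA5 followed at 179.9 to 239.4 FPKM (median 202.4). ANXA3 at 87.2 to 140.3 FPKM and ANXA11 at 89.1 to 103.3 FPKM overlapped. ANXA7 came next at 55.9 to 71.7 FPKM, below every value of ANXA11. ANXA8 at 31.1 to 46.4 FPKM and ANXA4 at 27.1 to 38.4 FPKM overlapped again, and ANXA9 stood well below them at 3.29 to 8.66 FPKM. Apart from ANXA3 with ANXA11 and ANXA8 with ANXA4, neighbours in this order did not overlap in any library. The place of ANXA8 is uncertain, as reads can be shared with its near-identical copy ANXA8L1. Both genes together ran from 64.5 to 106.7 FPKM. Annexin A2 was of the same order as ANXA1, at 808.1, 839.3 and 991.3 FPKM in knockdown replicates 1 to 3, against 951.1 and 927.7 FPKM in controls, with a log2 difference of -0.10 that did not pass (limma adjusted p = 0.796).

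**Figure D1:**
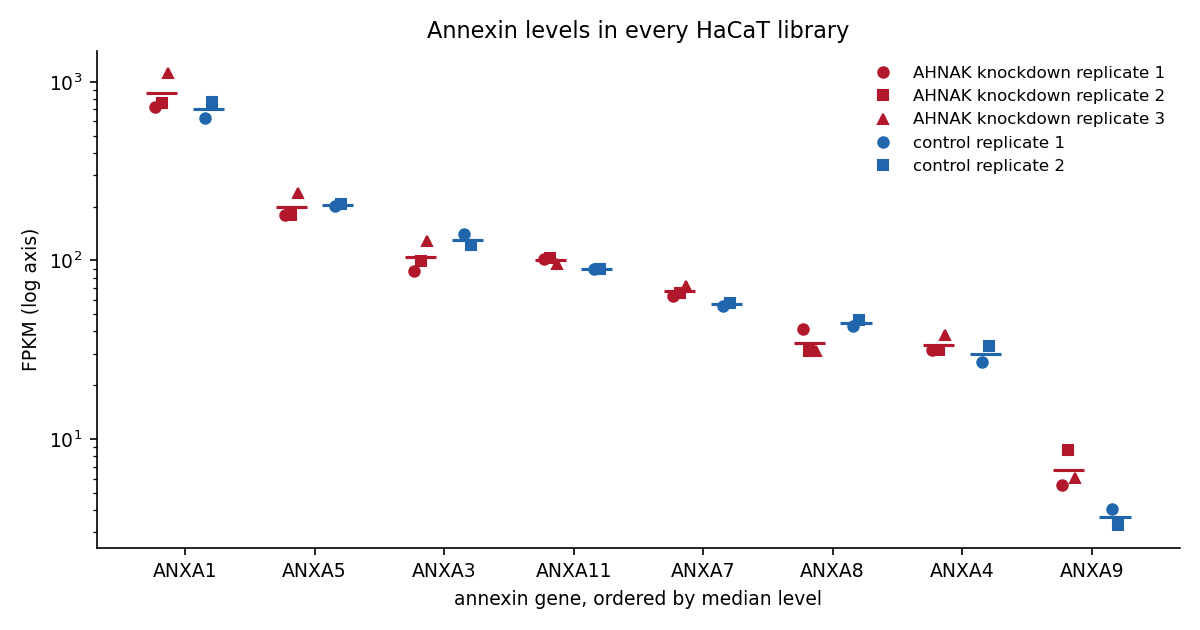
FPKM (log axis) of 8 annexin genes in the 3 AHNAK knockdown libraries (red, left of each gene) and the 2 control libraries (blue, right); horizontal lines are group means. ANXA9 shows the widest gap between the groups, with all knockdown values above both controls, while ANXA1 is set apart by its level; ANXA6, at most 0.0292 FPKM, is not drawn.

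The summed FPKM of the 9 genes was 1235, 1283 and 1726 in knockdown replicates 1 to 3, against 1189 and 1332 in control replicates 1 and 2. The group means were 1415 ± 271 FPKM (SD, n = 3) in knockdown and 1261 ± 101 FPKM (SD, n = 2) in controls, so the groups overlapped, with control replicate 1 the lowest library and knockdown replicate 3 the highest. ANXA1 made up 58.6%, 59.5% and 64.6% of that sum in knockdown replicates 1 to 3, against 52.8% and 58% in controls.

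ANXA7 and ANXA11 carry the long, proline- and glycine-rich N-terminal tails of the family and bind the penta-EF-hand proteins PDCD6 and sorcin. ANXA7, also called synexin, was first described as a protein that aggregates secretory granules; ANXA11 is known from the midbody of dividing cells and from tethering RNA granules to lysosomes. ANXA7 (ENSG00000138279.15, minus strand, chr10:73375101-73414076, GRCh38) was at 63.6, 65.8 and 71.7 FPKM in knockdown replicates 1 to 3, against 55.9 and 58.1 FPKM in controls. Every knockdown value lay above both controls and the mean was 67.0 ± 4.16 FPKM (SD, n = 3) in knockdown cells, against 57.0 ± 1.55 FPKM (SD, n = 2) in control cells. Its log2 difference was 0.23 with an SE of 0.125 and a 95% confidence interval of -0.07 to 0.53, and it did not pass (limma adjusted p = 0.511). Set A alone gave 0.27, and set B alone 0.18.

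ANXA11 (ENSG00000122359.17, minus strand, chr10:80150889-80205572, GRCh38) varied least of the family, with a coefficient of variation of 7.04% over the 5 libraries. It was at 102.4, 103.3 and 95.6 FPKM in knockdown replicates 1 to 3, against 89.1 and 89.6 FPKM in controls. The groups did not overlap, and both controls were nearly equal. Its log2 difference came to 0.17 (SE 0.121; 95% interval -0.12 to 0.45; limma adjusted p = 0.609), and the sets gave 0.15 (A) and 0.20 (B).

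ANXA1, or lipocortin 1, is the annexin best known in inflammation: it was described as an inhibitor of cytosolic phospholipase A2, and its secreted N-terminal peptides act on formyl peptide receptors. ANXA1 (ENSG00000135046.13, plus strand, chr9:73151757-73170393, GRCh38) was at 723.5, 763.1 and 1115 FPKM in knockdown replicates 1 to 3, against 627.5 and 772.0 FPKM in controls. Knockdown replicate 3 alone lay above both controls. The means were 867.2 ± 216 FPKM (SD, n = 3) in knockdown and 699.8 ± 102 FPKM (SD, n = 2) in controls, and the log2 difference of 0.29 (SE 0.221, 95% confidence interval -0.24 to 0.82) did not pass (limma adjusted p = 0.628). Without knockdown replicate 3 it was 0.09 (adjusted p = 0.763), and leaving out each other library in turn gave 0.14 (without control replicate 1) to 0.44 (without control replicate 2). It was 0.52 in set A, which holds that library, and -0.02 in set B.

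ANXA5, ANXA3 and ANXA4 are short-tailed annexins. ANXA5 forms lattices on phosphatidylserine, which is why the labelled protein is used to stain dying cells. ANXA5 (ENSG00000164111.14, minus strand, chr4:121667955-121697113, GRCh38) was at 179.9, 180.6 and 239.4 FPKM in knockdown replicates 1 to 3, against 202.4 and 208.1 FPKM in controls. Knockdown replicates 1 and 2 were below both controls and replicate 3 above them. Its log2 difference of -0.05 (SE 0.166, 95% confidence interval -0.45 to 0.35; limma adjusted p = 0.918) was the smallest of the family, and its sign turned to 0.02 without knockdown replicate 1 or without replicate 2. The sets gave 0.04 (A) and -0.20 (B).

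ANXA3, known from neutrophil granule membranes, leaned the other way from ANXA1. ANXA3 (ENSG00000138772.12, plus strand, chr4:78551519-78610451, GRCh38) was at 87.2, 99.1 and 128.5 FPKM in knockdown replicates 1 to 3, against 140.3 and 121.2 FPKM in controls. Knockdown replicate 3 fell between the controls, and the other knockdown libraries lay below both. Its log2 difference came to -0.33 (SE 0.190; 95% interval -0.79 to 0.12; limma adjusted p = 0.535), and the sets gave -0.40 (A) and -0.29 (B). Leaving out each library in turn gave -0.21 (without knockdown replicate 1; limma adjusted p = 0.580) to -0.49 (without knockdown replicate 3; adjusted p = 0.304).

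ANXA4 is an annexin of secretory epithelia. ANXA4 (ENSG00000196975.15, plus strand, chr2:69644425-69827100, GRCh38) was at 31.4, 31.4 and 38.4 FPKM in knockdown replicates 1 to 3, against 27.1 and 33.0 FPKM in controls. The groups overlapped, with knockdown replicate 3 the highest and control replicate 1 the lowest. Its log2 difference came to 0.16 (SE 0.158; 95% interval -0.21 to 0.54; limma adjusted p = 0.696), with opposite signs in the sets, 0.35 in A and -0.07 in B. It was 0.02 without control replicate 1, 0.07 without knockdown replicate 3 and 0.30 without control replicate 2, and none of these passed (limma adjusted p = 1, 0.819 and 0.974).

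**Figure D2:**
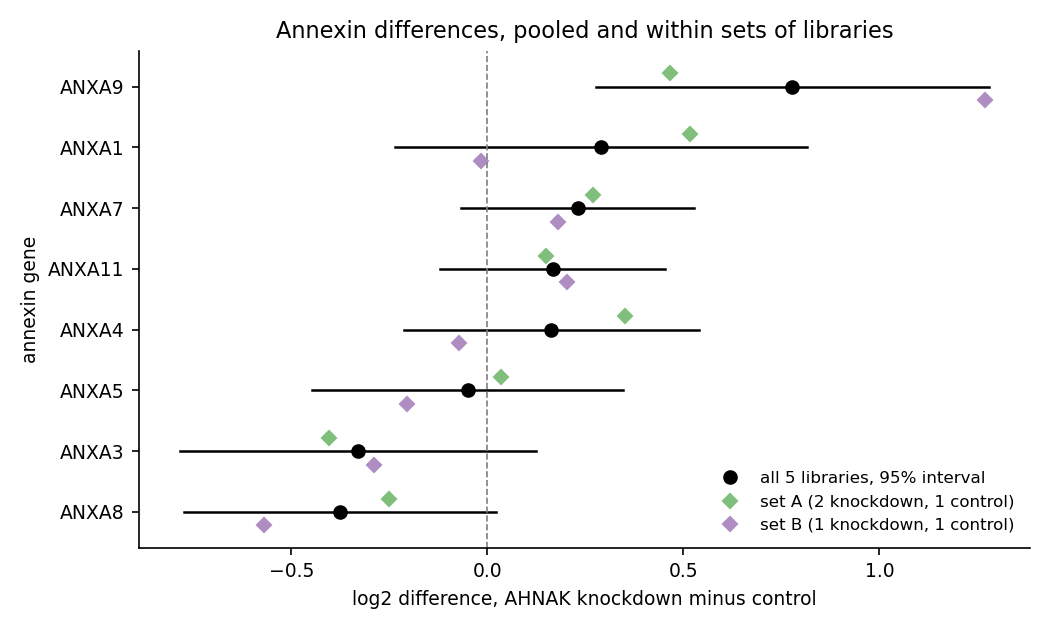
Log2 difference (knockdown minus control) of 8 annexins: black points with 95% intervals use all 5 libraries, green diamonds set A (2 knockdown libraries, 1 control) and purple diamonds set B (1 of each). The interval lies off 0 for ANXA9 only, an interval not adjusted for the 12196 genes tested, and the sets give opposite signs for ANXA1, ANXA4 and ANXA5.

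In knockdown replicate 3, ANXA1, ANXA4, ANXA5 and ANXA7 had their highest values of the 5 libraries. Relative to each gene's mean over the 5 libraries, that library deviated by 0.51 for ANXA1, 0.26 for ANXA4, 0.25 for ANXA5, 0.19 for ANXA7 and 0.18 for ANXA3 on the log2 scale. ANXA9, ANXA11 and ANXA8 deviated there by 0.18, -0.004 and -0.28. The longest coding transcripts of the first 5 genes have a GC content of 39.3% (ANXA1) to 46.3% (ANXA5), and those of ANXA11, ANXA8 and ANXA9 of 52.3%, 54.8% and 55.2%. Over all tested genes with an annotation, deviations of knockdown replicate 3 had a Spearman's rho of -0.548 with GC content and -0.214 with transcript length, and those of knockdown replicate 1 a rho of 0.608 with GC content. These are correlations across genes, which are not independent replicates. After correction of each library for GC content and length, the log2 differences were 0.20 for ANXA1, 0.09 for ANXA4, -0.14 for ANXA5, -0.43 for ANXA3, 0.15 for ANXA7, 0.23 for ANXA11, -0.40 for ANXA8 and 0.74 for ANXA9, none of which passed (limma adjusted p from 0.211 to 0.690). All 8 kept their sign.

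**Figure D3:**
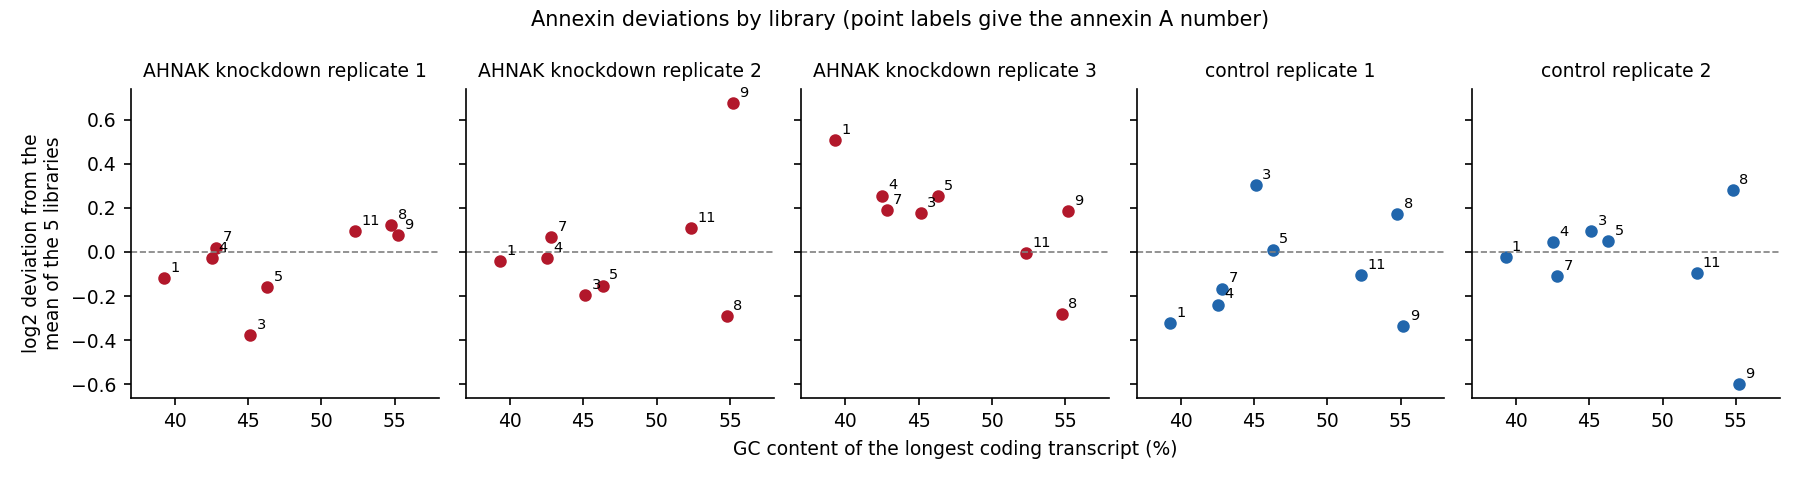
Log2 deviation of each annexin from its mean over the 5 libraries (y) against the GC content of its longest coding transcript in percent (x), 1 panel per library, knockdown in red and control in blue. In knockdown replicate 3 the annexins below 50% GC all lie above 0, ANXA1 highest at 0.51. Above 50% GC, ANXA9 lies there at 0.18, ANXA11 at -0.004 and ANXA8 at -0.28. In control replicate 1 ANXA1, ANXA4, ANXA7, ANXA9 and ANXA11 lie below 0.

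ANXA8 belongs to late endosomes and is rich in stratified epithelia, and the genome holds a second, almost identical coding gene, ANXA8L1, on the same chromosome. ANXA8 (ENSG00000265190.6, minus strand, chr10:47460162-47484158, GRCh38) and ANXA8L1 (ENSG00000264230.8, plus strand, chr10:46375627-46391784, GRCh38) were compared in GENCODE release 29 over matched transcripts of 1095 coding bases. They differed at 5 positions, T16G, C390T, A642G, G644C and T1053C (ANXA8 base, position from 1 at the start codon, ANXA8L1 base), an identity of 99.54%. Of the 1046 windows of 50 bases in this coding sequence, 885 (84.6%) were the same in both genes. Both stretches below show what tells the loci apart, with the differing bases in capitals: coding bases 350 to 430, in 1 exon, and 602 to 682, which span a splice junction.
ANXA8, bases 350 to 430: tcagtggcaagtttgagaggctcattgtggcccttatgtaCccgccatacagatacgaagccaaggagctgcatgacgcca
ANXA8L1, bases 350 to 430: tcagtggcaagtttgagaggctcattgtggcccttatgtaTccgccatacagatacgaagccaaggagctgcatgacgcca
ANXA8, bases 602 to 682: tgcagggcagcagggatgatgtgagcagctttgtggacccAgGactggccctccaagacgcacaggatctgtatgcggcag
ANXA8L1, bases 602 to 682: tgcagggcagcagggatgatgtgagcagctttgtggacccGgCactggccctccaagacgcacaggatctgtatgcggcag

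A read that covers none of the differing bases could have come from either gene. Over all coding transcripts of ANXA8, untranslated ends included, 45.5% of the 50-base stretches also occurred in ANXA8L1 and 31.4% did not but occurred in another gene, mostly AC245041.2, which has no row under that symbol in the expression table. Of the stretches of ANXA8L1, 80.8% occurred in ANXA8 and 2.33% in other genes without ANXA8. The labels do not say how ambiguous reads were divided, so the value of each gene alone is uncertain. ANXA8 was at 41.5, 31.1 and 31.3 FPKM in knockdown replicates 1 to 3, against 43.0 and 46.4 FPKM in controls. Every knockdown value was below both controls, replicate 1 by a narrow margin. Its log2 difference came to -0.38 (SE 0.167; 95% interval -0.77 to 0.02) and did not pass (limma adjusted p = 0.448), and the sets gave -0.25 (A) and -0.57 (B).

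ANXA8L1 was at 44.0, 37.3 and 33.2 FPKM in knockdown replicates 1 to 3, against 63.7 and 58.5 FPKM in controls, again with no overlap. Its log2 difference of -0.68 (SE 0.156) was larger than that of ANXA8 and did not pass (limma adjusted p = 0.375). Added together, the pair stood at 85.5, 68.4 and 64.5 FPKM in knockdown replicates 1 to 3, against 106.7 and 104.9 FPKM in controls. Whether this sum is free of the division of reads between the pair is unknown, as the labels do not describe that division. Sharing with the other genes is not removed, and the sum was not tested for a difference. The summed pair averaged 72.8 ± 11.2 FPKM (SD, n = 3) in knockdown cells, against 105.8 ± 1.25 FPKM (SD, n = 2) in control cells, and the ratio was 0.688. The share of the pair assigned to ANXA8 was 48.5%, 45.4% and 48.5% in knockdown replicates 1 to 3, against 40.3% and 44.2% in controls, higher in every knockdown library than in either control.

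**Figure D4:**
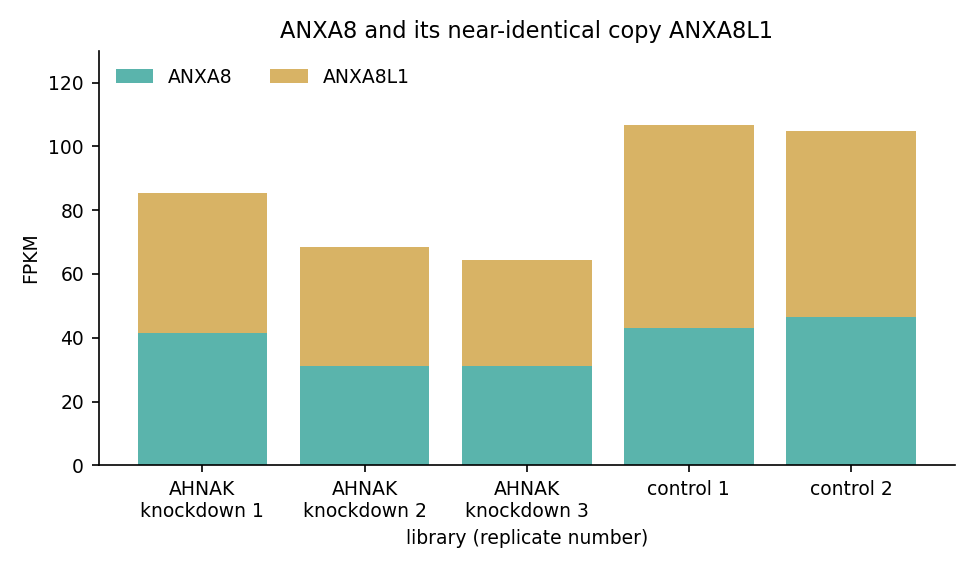
Stacked bars of ANXA8 (teal) and ANXA8L1 (tan) in FPKM for each library, knockdown on the left and controls on the right. The summed bars reach 64.5 to 85.5 FPKM in knockdown, below 104.9 and 106.7 FPKM in controls.

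For the other 8 genes exact sharing with annotated transcripts of other genes was small or nil. Copies that are not annotated, or that differ within 50 bases, were not searched for. None of the 50-base stretches of the coding transcripts of ANXA1, ANXA3, ANXA4, ANXA5, ANXA6, ANXA7 and ANXA9 occurred in transcripts of another gene, and 0.288% of those of ANXA11 did. Exons of ANXA7 overlapped a gene on the opposite strand over 105 bases (3.67% of its exonic bases), and the other 8 genes overlapped no annotated exon of another gene. The labels do not say whether strand was used in counting.

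ANXA6, which carries a pair of annexin cores and is known for cholesterol handling in late endosomes, was barely present in these libraries. ANXA6 (ENSG00000197043.13, minus strand, chr5:151100712-151157882, GRCh38) was listed at 0 in knockdown replicates 1 and 2 and at 0.0292 FPKM in knockdown replicate 3, against 0.0208 FPKM in control replicate 1 and 0 in control replicate 2. The value of control replicate 1 over that of knockdown replicate 3 was 0.71232, which is the most frequent ratio among low genes of this pair of libraries. If that ratio reflects what a single read is worth in each, both values come from the same number of reads. ANXA6 stayed under the filter. Fitted without a filter, its log2 difference was -0.0021 (limma adjusted p = 0.991). Values of at most 0.0292 FPKM are far below the constant added before taking logs, which holds any difference near 0. That fit therefore cannot decide whether ANXA6 differed between the groups. The depth is also unknown, as FPKM values do not give it.

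ANXA9 is the odd member: its core lacks residues that other annexins use to hold calcium, and it was described in keratinocytes as an autoantigen of pemphigus. ANXA9 (ENSG00000143412.9, plus strand, chr1:150982017-150995634, GRCh38) was at 5.54, 8.66 and 6.02 FPKM in knockdown replicates 1 to 3, against 4.05 and 3.29 FPKM in controls. All knockdown libraries were above both controls, and knockdown replicate 2, the library with the lowest AHNAK, was the highest. Knockdown replicates 1 and 3 were nearly equal in AHNAK (113.9 and 115.3 FPKM), with ANXA9 at 5.54 and 6.02 FPKM. Replicate 2 is also the only knockdown library of set B, so AHNAK level and set cannot be told apart. A relation of ANXA9 to the AHNAK level was not tested. ANXA9 averaged 6.74 ± 1.68 FPKM (SD, n = 3) in knockdown cells, against 3.67 ± 0.536 FPKM (SD, n = 2) in control cells. Its log2 difference came to 0.78 (SE 0.210; 95% interval 0.28 to 1.28, unadjusted p = 0.00816) and did not pass over all genes (limma adjusted p = 0.387). Set A alone gave 0.47 and set B alone 1.27. With array weights, which gave knockdown replicate 2 a weight of 3.98 and replicates 1 and 3 weights of 0.530 and 0.257, the difference was 1.05 and passed (limma adjusted p = 0.0359), as did 1428 of the 12196 genes (11.7%).

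The family's counts are set here beside those of all tested genes. Of the 8 annexins tested, 1 (ANXA9, higher) had an unadjusted p under 0.05, where 11.7% of all tested genes did, 6.22% higher and 5.48% lower. Groups did not overlap for 4 of the 8 (ANXA7, ANXA9 and ANXA11 higher, ANXA8 lower), where 32.0% of all tested genes did not overlap, 16.2% higher and 15.8% lower. The signs were the same within both sets for 5 of the 8 (ANXA3, ANXA7, ANXA8, ANXA9 and ANXA11), where 55.7% of all tested genes had that. The median log2 difference of the 8 was 0.17, with 5 higher and 3 lower, against a median of 0.01 over all tested genes. The median of the 8 was 0.08 without control replicate 1 and also without knockdown replicate 3. Set A gave a median of 0.21 for the 8 annexins, and set B one of -0.04.

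Genes with the most similar pattern over the 5 libraries were looked up for the 3 annexins of smallest p among 8676 other genes whose mean reached 5 FPKM, by the root mean square difference of log2 values centred on each gene's mean. For ANXA9 they were TMEM159 (0.0543) and CTSH (0.0617), where the median gene stood at 0.470. For ANXA8 the nearest was DDB1 (0.0200), where the median was 0.288. For ANXA7 they were COX5A (0.0121) and LCMT1 (0.0162), where the median was 0.207. These are descriptions of 5 libraries.

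Partners of annexins were followed as a list of 14 genes, of which 10 passed the filter, 0 passed the threshold in limma and 1 (EGFR) had an unadjusted p under 0.05. Of the 10, 8 were higher and 2 lower, with a median log2 difference of 0.16 (set A 0.19, set B 0.24). Of all 12196 tested genes, 6256 were higher and 5940 lower, and 11.7% had an unadjusted p under 0.05; their median was 0.01 (set A -0.009, set B 0.000464). The 4 of smallest p were EGFR, whose kinase phosphorylates annexin A1, SRI (sorcin), which binds annexin A7, S100A4, a calcium-binding protein known from cell motility, and RASA1, a Ras GTPase-activating protein that binds annexin A6. EGFR was at 59.7, 49.2 and 37.2 FPKM in knockdown replicates 1 to 3, against 73.3 and 71.2 FPKM in controls. All knockdown libraries lay below both controls, and the log2 difference was -0.59 (SE 0.205; limma adjusted p = 0.394), and the sets gave -0.63 (A) and -0.53 (B). SRI was at 33.8, 44.2 and 54.5 FPKM in knockdown replicates 1 to 3, against 30.9 and 33.2 FPKM in controls, a log2 difference of 0.43 (SE 0.207; limma adjusted p = 0.472). S100A4 and RASA1 differed by 0.28 and 0.24, also without overlap between groups and without passing (limma adjusted p = 0.509 and 0.535). Groups did not overlap for 32.0% of all tested genes, and these 4 partners were picked for their small p. PDCD6, the other penta-EF-hand partner of ANXA7 and ANXA11, was at 64.2 ± 2.50 FPKM (SD, n = 3) in knockdown and 58.1 ± 3.30 FPKM (SD, n = 2) in controls.

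The S100 proteins that dock on annexin tails were abundant. S100A11, a partner of annexin A1, was at 923.6, 912.8 and 1149 FPKM in knockdown replicates 1 to 3, against 840.1 and 975.2 FPKM in controls. S100A6 averaged 480.4 ± 71.2 FPKM (SD, n = 3) in knockdown and 481.8 ± 77.3 FPKM (SD, n = 2) in controls. S100A10 was at 334.9, 342.4 and 566.0 FPKM in knockdown replicates 1 to 3, against 314.6 and 406.5 FPKM in controls. Each of these was highest in knockdown replicate 3, as ANXA1 was, and their groups overlapped. The receptors for annexin A1 were at or near 0: FPR2 and FPR3 were listed at 0 in all 5 libraries, and FPR1 only in knockdown replicate 2 above that, at 0.0583 FPKM. PLA2G4A, the cytosolic phospholipase A2, was at 5.74 ± 0.497 FPKM (SD, n = 3) in knockdown and 4.90 ± 0.0293 FPKM (SD, n = 2) in controls, a log2 difference of 0.20 (SE 0.134; limma adjusted p = 0.578).

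Copines, another family that binds phospholipids in a calcium-dependent way, served as a contrast. Of 9 copines 5 passed the filter and 0 the threshold, 2 higher and 3 lower, with a median log2 difference of -0.11 and values from -0.40 (CPNE7) to 0.12 (CPNE8). None had an unadjusted p under 0.05. A difference between the families was not tested.

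**Figure D5:**
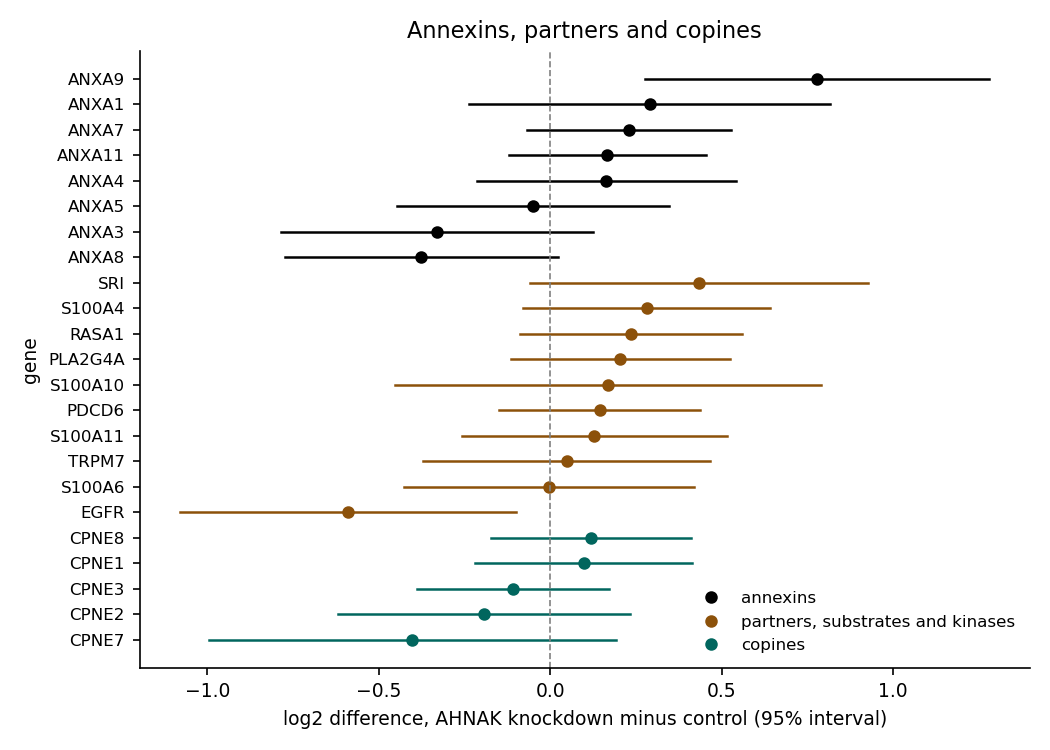
Log2 difference (knockdown minus control) with 95% intervals for the 8 tested annexins (black), 10 annexin partners, substrates and kinases (brown) and 5 copines (green). Intervals, not adjusted for the number of genes, lie off 0 for ANXA9 (0.28 to 1.28) and EGFR (-1.08 to -0.10) only.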

How the data were processed

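The authors deposited 1 table of FPKM values for 5 HaCaT libraries. Per the submitters' processing notes, HISAT2 2.0.1 and StringTie 2.0.6 were used, and the builds GRCh38 and mm9 are named without a role; the annotation and strand setting are not stated there. FPKM give no read totals, so the depth is unknown and no interval for counting error was computed. Genes whose mean reached 1 FPKM were tested across all genes as log2(FPKM + 0.5) with limma 3.58.1 in R 4.3.3 (eBayes with an intensity trend, two-sided, Benjamini-Hochberg adjusted p under 0.05). This step was tested on simulated data with independent noise and planted differences larger than those of any annexin. That simulation gives no error rate or power for these libraries. Grouping 2 against 3 libraries allows 10 arrangements, which puts the smallest p of an exact permutation test at 0.1; none was used. Sets of libraries were found from the most frequent ratio of values under 0.3 FPKM, rounded to 5 decimals, linking pairs where it held for over 10% of low genes. It held for 17.0% to 25.1% in the linked pairs and at most 3.96% elsewhere. Coordinates, transcripts, GC content and length came from GENCODE release 29 by symbol (96.5% of tested genes matched); the loess span was 0.3. Genes were named by rule: all 9 annexins, AHNAK, ANXA2, copies of an annexin, the 4 partners of smallest p and the 2 nearest genes of 3 annexins, 1 of which is not reported here. S100A10, S100A11, S100A6, PDCD6, PLA2G4A, the FPR genes, CPNE7 and CPNE8 were named after their values were seen. The genes and lists were chosen with earlier results of these data known. Alternatives left out each library, added a replicate block or a set term, corrected for GC content and length, or changed the pseudocount, filter, scaling, variance model, weights or threshold.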

Additional observations from a re-analysis of the deposited data

How the results depend on the processing

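Over 18 alternatives fitted to both sets together, 142 of 144 annexin differences kept their sign. Changes of filter or variance model cannot move a difference, and the replicate block repeated the differences found without knockdown replicate 3. Those fits are therefore not separate checks of a sign. Within single sets the sign turned for ANXA1 (-0.0168) and ANXA4 (-0.0721) in set B and ANXA5 (0.0359) in set A. ANXA8 (-0.47) and ANXA9 (1.05) passed with array weights only, as did ANXA8L1 (-0.69) and AHNAK (-1.55). ANXA5 turned to 0.0189 and 0.0161 without knockdown replicates 1 and 2 (range without single libraries -0.187 to 0.0189). With array weights 2 annexins passed and 5 had an unadjusted p under 0.05, where 35.1% of all genes did. That last count, 1 in the fit reported, was 2 with quantile normalization (11.8% of all genes), 2 with the replicate block (8.01%), 3 after correction for GC content and length (17.6%), and 1 to 2 without single libraries. Genes past the threshold numbered 1 each with a pseudocount of 1, without a trend, with robust empirical Bayes and at adjusted p under 0.1, 1428 with array weights, and 0 to 9 without single libraries (9 without control replicate 1). Unadjusted p under 0.05 was met by 512 genes higher and 820 lower after rescaling to equal sums, against 759 and 668, and in all by 1427 genes, against 828 with the set term, 4285 with array weights, 862 of 8677 genes of at least 5 FPKM (fewer genes tested), and 690, 564 and 740 without control replicates 1 and 2 and knockdown replicate 2. The cause of these changes was not tested. Deviations of same-numbered libraries from their group means correlated across genes at -0.0638 and -0.578. The 2 controls deviate from their mean as mirror images, so these values cannot decide whether replicate numbers pair the libraries. With the replicate block 0 genes passed and ANXA9 differed by 0.84. The depth is unknown, so low values such as those of ANXA6 and the FPR genes have no counting interval.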
